A study of Mus musculus with 28 samples.

Results

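The genes described here encode the constant regions of mouse antibodies and the joining chain. They were given as a list of 9 symbols, Ighm, Ighd, Igha, Ighg1, Ighg2b, Ighg2c, Ighg3, Igkc and Jchain, and 8 of the 9 were matched by Ensembl identifier among the 38924 genes of the count table. Ighd was not matched and has no value here. The list was chosen by measured values, the levels of these genes between cell types and recipient ages in the same libraries, so those comparisons are given as a description, and nothing is read from how many of the genes pass a test in them. RNA sequencing counts came from 28 libraries of bone marrow cells of mice labelled C57BL/6, with 1 aged mutant MPP3 library labelled C57BL/7. Marrow of young donors that were either Mx1-Cre controls or Dnmt3a-mutant had been transplanted into young or aged CD45.1 recipients, and 2 populations were taken back out 4 months later: LT-HSC, the long-term blood stem cells, and MPP3, multipotent progenitors biased to the myeloid lineage. Mx1-Cre is a recombinase driven by an interferon-responsive promoter, which the control donors carried; the labels name neither the mutant allele nor, for mutant donors, the transgene. The LT-HSC groups held 3 aged control, 4 aged mutant, 4 young control and 2 young mutant libraries, and the MPP3 groups held 4, 4, 4 and 3. Every aged LT-HSC library named 2 recipients, as did most aged MPP3 libraries, and young recipients were named singly. The labels did not state how donor cells were gated.

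An antibody is built of heavy and light chains. The heavy constant region sets the class of the antibody: Ighm encodes IgM, the first class a B cell makes, Igha encodes IgA, the class of mucosal secretions, and the Ighg genes encode the IgG subclasses of blood. A B cell moves from Ighm to another class by class switching, in which the DNA between the variable exon and the new constant region is removed. Igkc encodes the kappa light chain constant region, and Jchain encodes the small joining chain that links IgM or IgA units into polymers. Plasma cells, which settle in the bone marrow, hold these transcripts in very large amounts, whereas stem cells and myeloid progenitors are not antibody-producing cells.

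The 6 heavy chain genes lie in 1 cluster on the minus strand of chromosome 12 of GRCm38, with Ighm at chr12:113418558-113422730 and Igha at the far end of the cluster at chr12:113254830-113260236. Igkc lies at chr6:70726435-70726966 on the plus strand, and Jchain at chr5:88519809-88527891 on the minus strand. The sequences below are the last coding bases of the secreted forms, taken from the GENCODE M21 transcripts, 60 bases each, minus strand. They are shown because they hold the feature that sets IgM and IgA apart from IgG in their use of the J chain: the tailpiece cysteine. Capitals mark the next-to-last codon, which is the cysteine codon TGC in Ighm and Igha and the glycine codon GGT in Ighg2b, shown for the IgG genes.
Ighm, chr12:113420870-113420929: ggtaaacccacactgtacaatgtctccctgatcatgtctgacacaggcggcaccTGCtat
Igha, chr12:113258771-113258830: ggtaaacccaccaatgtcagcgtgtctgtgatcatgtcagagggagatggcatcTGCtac
Ighg2b, chr12:113306392-113306451: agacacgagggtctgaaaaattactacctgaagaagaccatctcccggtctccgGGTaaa
The Ighm and Igha tails matched at 41 of 60 positions. Over the whole secreted coding sequences, Igha and Ighm shared no run of 50 bases. Ighg2b and Ighg2c were 85.9% identical and shared 56 such runs, so counts of these subclasses could be split between them and are uncertain.

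Library totals ran from 5591775 to 10788237 counts. The labelled cell types were checked against marker genes: 10 of 10 LT-HSC markers were lower in MPP3 and 10 of 10 progenitor markers were higher (edgeR quasi-likelihood test, Benjamini-Hochberg adjusted p under 0.05). Of all genes tested, 12.2% passed in this comparison. The summed progenitor list ran from 127 to 4241 CPM (counts scaled to library size) in LT-HSC and from 9375 to 47385 CPM in MPP3, with the highest LT-HSC value in aged mutant replicate 4. That library also stood apart in neutrophil markers, at 15574 CPM against at most 1890 CPM in the other LT-HSC libraries, and in erythroid markers, at 16337 CPM. Libraries fell into 2 sets of 14, inferred from the library and sample numbers in the column names. They are called pools here, but the labels did not state whether they mark a pool, a lane or a run. The 8 genes took 2.28% ± 1.76 of counts in the 6 MPP3 libraries of pool 1 and 0.724% ± 0.643 (both SD) in the 9 of pool 2, and the part of the pool in this difference was not tested. Within a bulk library, fewer cells of a type and less RNA per cell cannot be told apart.

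Antibody transcripts were abundant in every MPP3 library and scarce in most LT-HSC libraries. Together the 8 genes took from 0.181% to 4.32% of all counts in MPP3, with a median of 0.558% over 15 libraries. In LT-HSC they took from 9.6e-05% to 1.32%, with a median of 0.00349% over 13 libraries. The 2 cell types overlapped only because 2 LT-HSC libraries were high: aged mutant replicate 1 at 1.16% and aged mutant replicate 4 at 1.32%. These 2 libraries held 98.0% of all LT-HSC counts in the 8 genes. Each of the other 11 LT-HSC libraries stayed at or below 0.0236%, which is under the lowest MPP3 library.

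**Figure D1:**
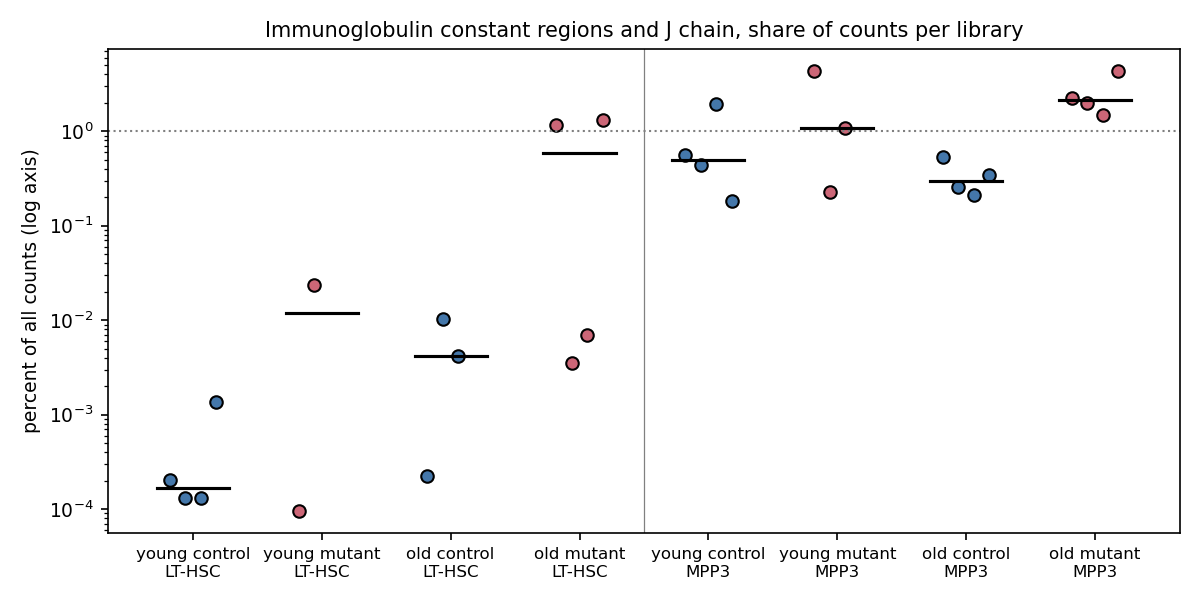
Percent of all counts that fell in the 8 genes, on a log axis, for each library of the 8 groups; each point is 1 library, the bar is the group median and the dotted line is 1%. MPP3 libraries sit between 0.181% and 4.32%, while LT-HSC libraries reach from 9.6e-05% up to the 2 aged mutant libraries at 1.16% and 1.32%.

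The heavy chain class differed between the cell types. Igha made up 78.6% ± 20.8 (SD, n = 15) of heavy chain counts in MPP3 and was above 50% in 13 of 15 libraries. All 4 Ighg genes together stayed under 1% of heavy chain counts in each of the 15 MPP3 libraries. In LT-HSC, the counts pooled over libraries were 99.1% Ighm and 0.0906% Igha. Without the 2 libraries above 1% the pooled counts were 90.4% Ighm and 3.80% Igha (110 of 2895). That share again rested on few libraries: of the 2617 Ighm counts, 1695 were from young mutant replicate 2 and 621 from aged control replicate 2. By library, Ighm was above 50% in 9 of 13 LT-HSC libraries. Igha was above 50% in 3, which held 10, 6 and 6 heavy chain counts. The mean Igha share over the 13 libraries was 23.3% ± 32.8 (SD). Divided by the length of the secreted transcripts, the mean share of Igha in MPP3 was 82.2% and the mean share of Ighm in LT-HSC was 63.6%, against 66.2% ± 38.7 (SD, n = 13) from counts alone. The LT-HSC means give libraries with very few antibody counts the same weight as the rest.

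Igha, the IgA heavy chain, had 6, 8 and 1 counts in aged control LT-HSC, 20, 1, 62 and 7 in aged mutant, 0, 3, 4 and 7 in young control, and 6 and 12 in young mutant. No LT-HSC library therefore exceeded 62 Igha counts. In MPP3, Igha stood at 15599, 9671, 8777 and 20532 counts in aged control and at 60311, 60103, 54649 and 287253 in aged mutant. In young recipients it stood at 16249, 19359, 67090 and 7493 counts in control and at 225067, 4231 and 44750 in mutant MPP3. The lowest MPP3 library thus had far more Igha than the highest LT-HSC library, and the CPM of the cell types did not overlap. Among all genes tested, 0.233% were higher in MPP3 without overlap.

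Ighm, the IgM heavy chain, did overlap between cell types. LT-HSC libraries held 3, 621 and 21 Ighm counts in aged control, 67672, 0, 215 and 79429 in aged mutant, 12, 5, 2 and 43 in young control, and 0 and 1695 in young mutant. The aged mutant group therefore held both the highest values of the 28 libraries and a library at 0. MPP3 libraries held 2252, 4050, 2585 and 2200 Ighm counts in aged control and 60416, 845, 4873 and 3855 in aged mutant. Young MPP3 held 12910, 1858, 10679 and 1908 in control and 11106, 13239 and 6970 in mutant. The MPP3 values were more even than the LT-HSC values, with no MPP3 library below 845 counts.

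In 2 MPP3 libraries Igha was not the majority. Young mutant replicate 2 was 75.8% Ighm (95% exact Clopper-Pearson interval 75.1 to 76.4, from 17470 heavy chain counts) and 24.2% Igha. Aged mutant replicate 1 was evenly divided, with 49.9% Ighm and 49.8% Igha of 120999 counts. Intervals of this kind cover counting error only. In the other 13 libraries Igha ran from 55.7% in young control replicate 1 to 98.3% in aged mutant replicate 2.

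Only 7 of 13 LT-HSC libraries had 50 or more heavy chain counts, and 6 of those 7 were mostly Ighm. The exception was aged mutant replicate 2, in which Ighg2b, an IgG2 subclass, gave 63 of 64 heavy chain counts (98.4%, exact interval 91.6 to 99.96) and Ighm gave 0. Aged mutant replicate 3 was the most mixed, with 215 Ighm, 74 Ighg2c, 62 Igha and 30 Ighg3 counts. The same library type could thus carry IgM, IgG2b or a mixture while holding few antibody counts in all. In the 2 libraries above 1%, Igha gave 20 of 67693 heavy chain counts (0.0295%) and 7 of 80545 (0.00869%).

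**Figure D2:**
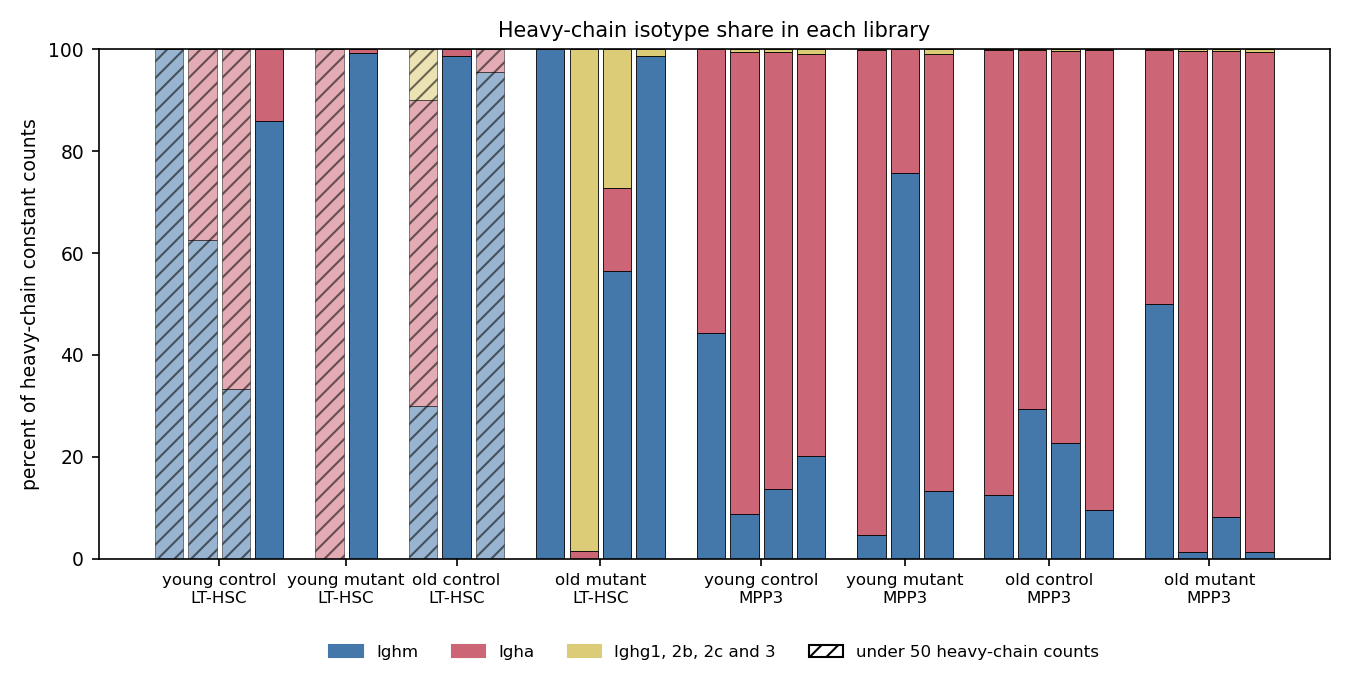
Share of heavy chain constant counts from Ighm, Igha and the 4 Ighg genes in each of the 28 libraries, in percent; each bar is 1 library and hatched bars had under 50 heavy chain counts. Igha fills most of the bar in 13 of 15 MPP3 libraries, and Ighm in 6 of the 7 LT-HSC libraries with 50 or more counts.

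The IgG genes were detected in scattered libraries. Ighg1 had 119 counts in young control MPP3 replicate 2, 108 in aged mutant MPP3 replicate 3 and 1 in young mutant MPP3 replicate 3, and was at 0 in all 13 LT-HSC libraries. Ighg2b was at 0 in 11 of 13 LT-HSC libraries, with 63 counts in aged mutant replicate 2 and 1109 in aged mutant replicate 4. In MPP3 it was found in all 8 libraries of aged recipients and in 4 of 7 of young recipients. Ighg3 reached 801 counts in aged mutant MPP3 replicate 4 and at most 30 in any other library.

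Igkc, the kappa light chain, was highest in libraries rich in heavy chain counts but did not follow them in each library. In LT-HSC, Igkc had 1, 0 and 211 counts in aged control, 18478, 187, 81 and 13329 in aged mutant, 4, 2, 3 and 33 in young control, and 3 and 260 in young mutant. The 2 LT-HSC libraries rich in Ighm were also the richest in Igkc. In aged control replicate 2, 0 Igkc counts stood beside 629 heavy chain counts, and in replicate 3, 211 stood beside only 22. Light and heavy chain counts thus did not keep 1 ratio in LT-HSC. In MPP3, Igkc ran from 1825 to 151287 counts with a median of 23543.

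Jchain, the polymerising chain, was nearly absent from LT-HSC. It had 922 counts in aged mutant replicate 1, 2357 in aged mutant replicate 4, and at most 7 in each of the other 11 LT-HSC libraries. MPP3 libraries held from 953 to 27156 Jchain counts. Per 100 heavy chain counts there were 10.6 ± 3.00 Jchain counts in MPP3 (SD, n = 15), with a range of 5.76 to 17.2. In the 2 antibody-rich LT-HSC libraries the same ratio was 1.36 and 2.93, below each MPP3 library.

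In the fit over all 28 libraries, 4 of the 8 genes passed an adjusted p of 0.05 as higher in MPP3: Igha, Igkc, Jchain and Ighg2b. Of all 16309 genes tested, 12.2% passed and 6.35% passed as higher in MPP3. This contrast was among those that chose the genes. The fitted log2 difference was 12.36 for Igha (SE 1.05), 7.07 for Igkc (SE 1.28) and 3.66 for Ighm (SE 1.23). Without the 9 libraries above 1%, the difference was 9.90 for Igha, 6.43 for Igkc and 5.32 for Ighm. That cut left no aged mutant MPP3 library. With recipients as a block, 4 of the genes passed and the count over all genes fell to 1242 from 1997.

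LT-HSC and MPP3 libraries could be matched through recipients named in both titles, which gave 14 pairs, 2 of them with a shared LT-HSC library. The 8 genes took a larger share of counts in MPP3 in 14 of 14 pairs, and the Igha share of heavy chain counts was larger in MPP3 in 13 of 14. The exception was young mutant LT-HSC replicate 1, whose heavy chain counts were 6 Igha and no others. Ighm counts were higher in LT-HSC in 2 of 14 pairs. From recipients 141 and 142, LT-HSC held 67672 Ighm counts and MPP3 held 60416. From recipients 149 and 150, LT-HSC held 79429 and MPP3 held 3855. Libraries of the same animals thus differed in antibody class, with 0.0295% Igha in LT-HSC against 49.8% in MPP3 in the first pair and 0.00869% against 98.2% in the second.

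**Figure D3:**
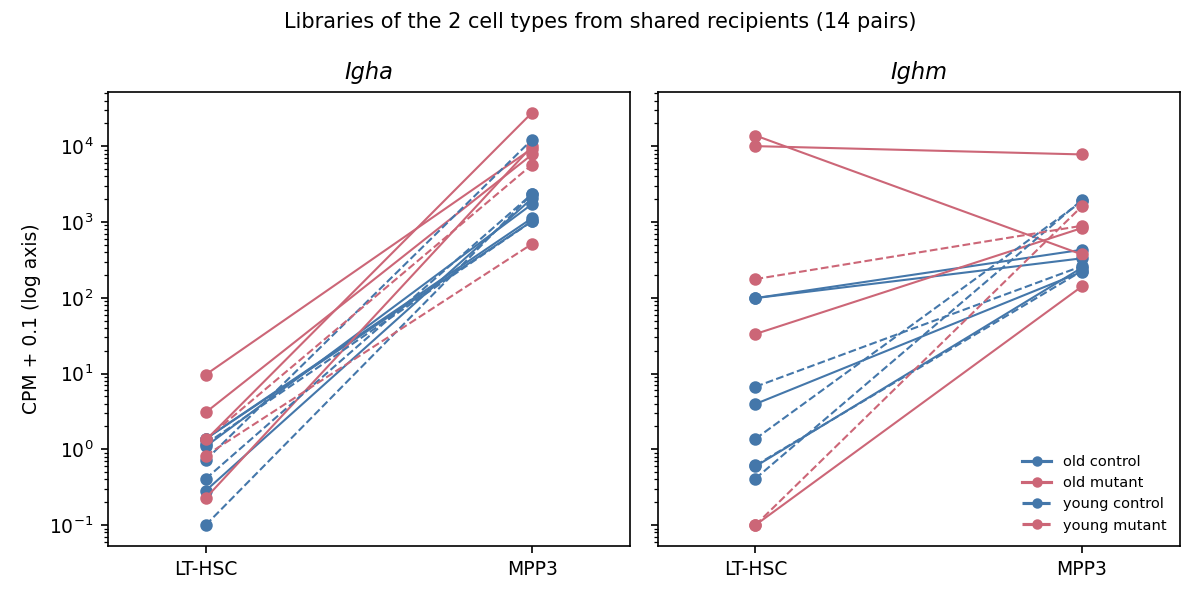
CPM of Igha and Ighm, with 0.1 added, on a log axis; each line joins an LT-HSC and an MPP3 library that name a shared recipient (14 pairs), with colour for donor genotype and solid lines for aged recipients. All 14 Igha lines rise toward MPP3, while the Ighm lines of 2 aged mutant pairs start higher in LT-HSC and fall.

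The variable genes, which join to these constant regions and differ between B cell clones, were compared within those 2 pairs. Variable genes were not members of the list, and many have near-identical copies, so a single gene's count is uncertain. In LT-HSC of recipients 141 and 142, Ighv1-26 gave 5021 of 5100 heavy variable counts (98.5%) and Igkv6-15 gave 7760 of 7822 kappa variable counts (99.2%). In MPP3 of the same recipients both were at 0, of 12488 and 20396 counts, which allows shares of up to 0.0240% and 0.0147% (3 counts). The leading heavy variable gene there was Ighv1-72 with 86.0%, which in turn was at 0 in LT-HSC.

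Recipients 149 and 150 showed the same lack of overlap in their leading genes. In LT-HSC, Ighv1-19 gave 13108 of 14126 heavy variable counts (92.8%) and Igkv4-72 gave 6028 of 6251 kappa variable counts (96.4%). Both were at 0 in MPP3, of 15378 and 56794 counts. The leading gene in that MPP3 library was Ighv1-64, with 37.4% of heavy variable counts, and it was at 0 in LT-HSC. Over the 15 MPP3 libraries, the leading heavy variable gene took from 16.1% to 99.5% of heavy variable counts, with a median of 53.1%, and 3 libraries were above 90%. Between 2 and 38 heavy variable genes per MPP3 library had more than 3 counts.

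Recipient age was the other contrast used to choose the genes. In LT-HSC the fitted difference, old minus young on the log2 scale, was 5.06 for Ighm (SE 2.64), 4.85 for Igkc (SE 1.92) and 1.25 for Igha (SE 1.39). These rest on single libraries: without the 2 libraries above 1%, the Ighm difference was 0.79 and that of Igkc 1.76. Without young mutant replicate 2 the Ighm difference was 11.21, and without aged control replicate 3 that of Igkc was 1.31. Old and young values overlapped for these 3 genes, and in heavy chain counts as a whole aged control replicate 1 had 10 heavy chain counts and young mutant replicate 2 had 1707.

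In MPP3 the age differences were small beside the spread. Old minus young was -0.69 for Igha (SE 0.73), -0.50 for Ighm (SE 0.79), -0.16 for Igkc (SE 0.76) and -1.004 for Jchain (SE 0.56). The Igha share of heavy chain counts was 82.8% ± 16.5 in old (SD, n = 8) and 73.8% ± 25.3 in young recipients (SD, n = 7), and the ranges overlapped. Without young mutant replicate 1, the Igha difference was 0.26 and that of Igkc 0.46. Within pool 1 that of Igha was -2.63, against 0.03 within pool 2. The only young MPP3 library of pool 1 was young mutant replicate 1, so age cannot be told from genotype or from that library there. In both cell types 0 genes of the list and 0% of all genes passed the edgeR test for age, with 1092 genes (LT-HSC) and 914 genes (MPP3) at an unadjusted p under 0.05. DESeq2 passed 248 and 55 genes, none of them on the list. For the difference in age effect between cell types edgeR passed 0 genes, with 1443 at an unadjusted p under 0.05, and DESeq2 passed 415 (2.54%), of which 3 were on the list.

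The rule that chose the genes did not name donor genotype, so that contrast was tested. It did use the levels in these same libraries, so the genotype comparison is not independent of the choice. In MPP3 of aged recipients the antibody genes stood higher when the donor was Dnmt3a-mutant. The 8 genes took 2.51% ± 1.24 of counts in mutant (SD, n = 4) and 0.338% ± 0.144 in control MPP3 (SD, n = 4), and all 4 mutant libraries lay above all 4 controls. All 4 mutant libraries, and 0 of 4 controls, were above 1%. No gene of the list passed the adjusted test, so these differences are given as values.

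Igha was at 1725, 1027, 1126 and 2054 CPM in aged control MPP3 and at 7787, 10024.5, 9329 and 27796 CPM in aged mutant MPP3. Jchain was at 225, 163, 122 and 139 CPM in control and at 1424, 1269, 1293 and 2006 CPM in mutant. Igkc was at 2603, 693, 501 and 721 CPM in control and at 6623, 7579, 4451 and 14639 CPM in mutant. For these 3 genes each mutant library was above each control. Ighg2b, at 1.70 to 4.90 CPM in control and 9.51 to 36.4 CPM in mutant, did not overlap either. Ighm overlapped, with 249, 430.0, 332 and 220.1 CPM in control and 7801, 141, 832 and 373 CPM in mutant. Among all genes tested, 1.36% were higher in mutant without overlap, against 4 of the 7 tested members of the list.

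The log2 difference, mutant minus control, was 3.23 for Igha (SE 1.08, edgeR adjusted p = 0.847), 3.22 for Jchain (SE 0.84, adjusted p = 0.765) and 2.91 for Igkc (SE 1.10, adjusted p = 0.847). For Ighm it was 2.92 (SE 1.16, adjusted p = 0.847), and it was 0.55 without aged mutant replicate 1. The median over the 7 tested members was 3.22, against 0.05 over all genes, and it was also 3.22 with Ighg2c, which was at 0 in all controls, set at its lower bound. Over all genes edgeR passed 0, with 804 at an unadjusted p under 0.05. DESeq2 passed 56 (0.402%), of which Jchain (DESeq2 adjusted p = 0.00805) and Ighg2c were on the list. Ighg2c entered the test only through mutant libraries, where it was high. The pools were not even, with 3 of 4 mutant and 2 of 4 control libraries in pool 1. Within pool 1 the Igha difference was 3.49 and within pool 2 it was 2.52. Marker lists of other cells had median log2 differences of 1.87 for neutrophil, -0.88 for erythroid and -1.07 for monocyte genes, and their part in the result was not tested. The summed neutrophil list had a median of 36.3 CPM and a maximum of 1054 CPM in mutant, against a median of 52.5 CPM in control. The group medians of that sum thus did not share the positive difference.

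**Figure D4:**
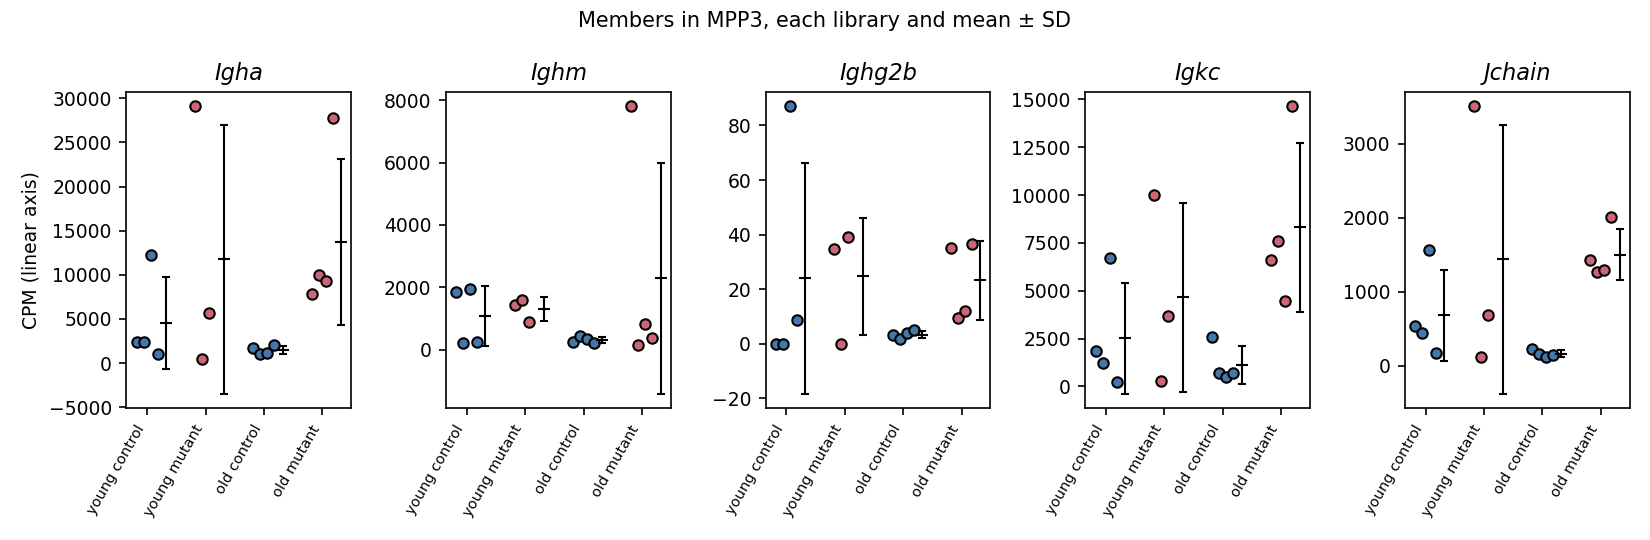
CPM of Igha, Ighm, Ighg2b, Igkc and Jchain in MPP3 on linear axes, by recipient age and donor genotype; points are libraries and the bars beside them are mean ± SD. In aged recipients the mutant points lie above all control points for Igha, Ighg2b, Igkc and Jchain, and in young recipients the groups overlap for each gene.

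In MPP3 of young recipients the genotypes overlapped. Igha was at 2349, 2347, 12265 and 1025 CPM in control and at 29082, 514 and 5725 CPM in mutant. The mutant group thus held both the highest and the lowest young value. Of the 7 tested members, 0 were higher in mutant without overlap, against 2.64% of all genes. The log2 difference was 1.38 for Igha (SE 1.07, edgeR adjusted p = 0.925), 1.07 for Jchain (SE 0.82, adjusted p = 0.925), 0.88 for Igkc (SE 1.10, adjusted p = 0.979) and 0.29 for Ighm (SE 1.16, adjusted p = 0.992). Leaving out young mutant replicate 1 turned 3 of these around, to -0.53 for Igha, -0.76 for Jchain and -0.34 for Igkc. The difference between old and young recipients in the genotype effect was itself tested: it was 1.85 for Igha (SE 1.49, adjusted p = 0.941) and 2.15 for Jchain (SE 1.15, adjusted p = 0.904), and edgeR passed 0 genes in all, with 752 at an unadjusted p under 0.05 and 39 by DESeq2.

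In LT-HSC the genotype values rested on few libraries. In aged recipients the 2 libraries above 1% were both mutant, while the other 2 mutant libraries, with 64 and 381 heavy chain counts, lay within the control range of 10 to 629. The fitted log2 difference was 7.42 for Ighm (SE 3.67, edgeR adjusted p = 0.507) and 6.58 for Igkc (SE 2.59, adjusted p = 0.478), and without the 2 high libraries that of Ighm was -1.09. In young recipients it was 5.40 for Ighm (SE 3.15, adjusted p = 1) and 3.23 for Igkc (SE 2.23, adjusted p = 1), and without mutant replicate 2 these were -6.92 and -2.003. Of the 5 members tested in LT-HSC, 0 passed in either comparison, beside 0% of all genes by edgeR, with 1491 genes in aged and 432 in young recipients at an unadjusted p under 0.05. DESeq2 passed 382 (2.62%) and 136 genes, of which 1, Jchain in aged recipients, was on the list. Jchain and Ighg2b entered the LT-HSC tests only through aged mutant libraries, the group where they were high.

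Genes of plasma cells, mature B cells, B precursors, the secretory pathway and class switching were read from separate lists that hold none of the 8 genes. Between cell types, 12.2% of all genes tested passed and 6.35% passed as higher in MPP3. Of 23 plasma cell genes tested between cell types, 12 rose and 0 fell in MPP3, with a median log2 difference of 1.70 against 0.05 over all genes. They included Irf4, a transcription factor of plasma cell fate (log2 difference 5.37, SE 0.94, edgeR adjusted p = 0.000263), Sdf2l1, a chaperone partner of the endoplasmic reticulum (3.61, SE 0.67, adjusted p = 0.000453), and Slamf7, a surface receptor of plasma cells. Of 16 mature B cell genes 12 rose, among them Blnk and Cd79a of B cell receptor signalling and Pax5, the regulator of B cell identity, and of 9 B precursor genes 8 rose, among them Igll1 and Dntt. Of 20 genes of the secretory pathway 14 rose, with a median of 1.26. The smallest p-values in that list were those of the chaperones Hsp90b1 (log2 difference 1.47, SE 0.18) and Calr (1.47, SE 0.20), and the largest difference among those that passed was that of the disulfide isomerase Pdia4 (2.07, SE 0.30). Of 15 class switching genes 1 rose, Lig4, and 1 fell, Rif1, which is near the share over all genes. The rise was not particular to these lists. Of 8 monocyte and macrophage genes 4 rose and 0 fell, with a median of 2.53, above that of the plasma cell list. Of 7 T and NK cell genes 2 rose and 1 fell (median -0.27), of 9 erythroid genes 1 rose, and of 10 neutrophil genes 0 did.

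The summed plasma cell list moved with the antibody genes. It was between 305 and 521 CPM in 11 LT-HSC libraries and at 1315 and 1011 CPM in aged mutant replicates 1 and 4. In MPP3 it was between 565 and 2804 CPM, with 662 ± 44.6 in aged control (SD, n = 4) and 1889 ± 389 in aged mutant (SD, n = 4). In the antibody-rich LT-HSC libraries the markers were uneven: Pou2af1, a B cell coactivator, was at 344 and 198 CPM, while Sdc1, the plasma cell surface marker CD138, was at 0 in all 13 LT-HSC libraries. Ms4a1, which encodes the B cell antigen CD20, was at 0 in aged mutant replicate 1 and at 111 CPM in replicate 4. The part of other cell types in the antibody counts was not tested.

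**Figure D5:**
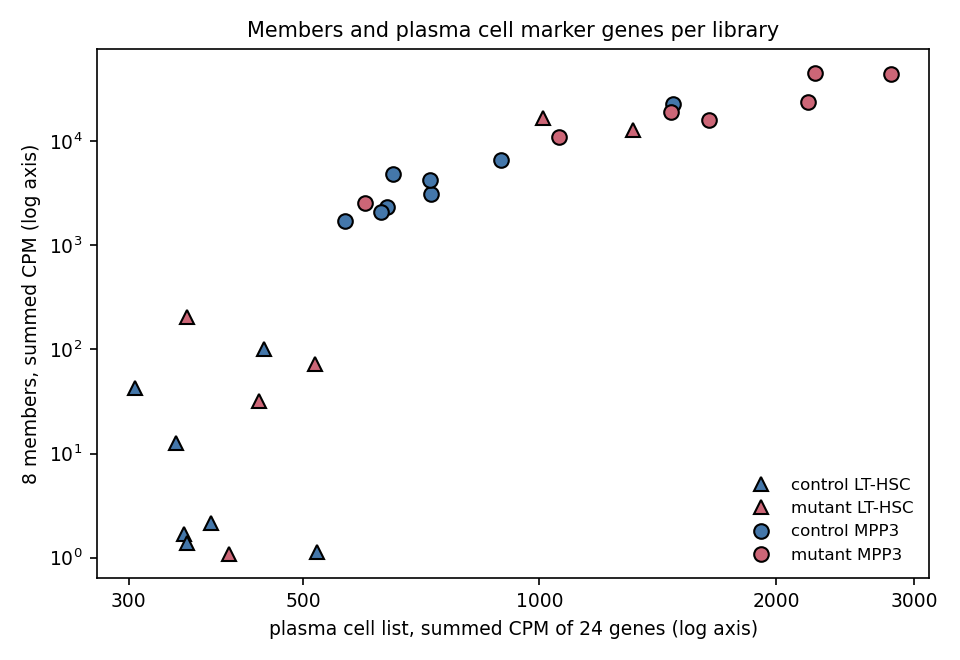
Summed CPM of the 8 genes against summed CPM of 24 plasma cell marker genes, both on log axes; each point is 1 of 28 libraries. All 15 MPP3 libraries and the 2 antibody-rich LT-HSC libraries lie at or above 565 CPM on the plasma cell axis, and the other 11 LT-HSC libraries lie at or below 521 CPM.

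Between aged mutant and aged control MPP3, 20 of 22 plasma cell genes, 15 of 16 mature B cell genes, 9 of 9 B precursor genes and 19 of 20 secretory genes had a positive log2 difference, with medians of 1.39, 1.63, 1.54 and 0.46 against 0.05 over all genes. None passed the adjusted test. Xbp1, the regulator of the secretory programme, was at 109, 81.4, 174 and 86.0 CPM in control and at 253, 256, 304 and 389 CPM in mutant. Pou2af1 was at 82.8, 196, 85.1 and 69.9 CPM in control and at 1025, 339.9, 352 and 451 CPM in mutant. Neither gene overlapped between genotypes (edgeR adjusted p = 0.687 for both), and 1.36% of all genes tested were higher in mutant without overlap. Of the list sums, that of plasma cell genes did not overlap, and those of the other lists did. The lowest mutant and highest control sums were 390 and 520 CPM for mature B cell genes. They were 786 and 920 CPM for B precursor genes, and 3250 and 4963 CPM for secretory genes. In young recipients 17 of 22 plasma cell genes and 16 of 16 mature B cell genes had a positive difference, as did 9 of 9 B precursor genes. The medians were 0.85, 1.35 and 2.15 against -0.04 over all genes. Genes of a list are not independent, and the libraries overlapped. The summed plasma cell list was at 2804, 599 and 1059 CPM in young mutant replicates 1 to 3, against 565 to 1479 CPM in control. The lowest mature B cell sum was 416 CPM in mutant and 502 CPM in control. Of the secretory genes 9 of 20 did, with a median of -0.05, against 19 of 20 in aged recipients, and the difference between ages was not tested for the list.

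Genes whose levels ordered the libraries most like the summed 8 genes were ranked by Spearman's rho on CPM, as a description. Over the 15 MPP3 libraries, among 10446 genes, the leading genes were Txndc5, a disulfide isomerase of the endoplasmic reticulum (rho 0.886), Cd74, the invariant chain of antigen presentation (0.861), and the sialyltransferase St6gal1 (0.850), followed by Bbs9, St8sia6, Pou2af1, Tram2 and Uso1 (0.818). Without the 2 libraries farthest from the median the rho of Txndc5 was 0.824. Over the 13 LT-HSC libraries, among 10969 genes, they were Mrps14 (0.901), Cd9 (0.885), Hps3 (0.879), Cybb, Rbm47, Cpeb2, Fam173b and Gm12018 (0.808). The 2 lists of 8 had no gene in common. The points of each ranking share a depth and a scaling per library.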

How the data were processed

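Polyadenylated RNA of 28 mouse samples was sequenced after column extraction, per the labels' protocols. The authors deposited 1 table of whole-number, unnormalized counts per Ensembl gene. RSEM 1.2.12, Bowtie2 2.2.0, SAMtools 0.1.18, edgeR 3.5.3 and GRCm38 are named in the submitters' processing notes, without their roles; the strand setting was not given in the sources used here. Symbols came from GENCODE M21, which matched 37607 of 38924 identifiers. The 8 members, the marker lists and the rule for named genes (all members; per list, up to 3 called genes a direction and the 4 most abundant; the 8 genes of most like pattern) were chosen with earlier results of these data known.

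Counts were tested with edgeR 4.0.16 in R 4.3.3 (filterByExpr with a minimum count of 10, TMM scaling, robust quasi-likelihood fit, 2-sided, Benjamini-Hochberg threshold 0.05), with 1 fit over all libraries for the cell types and 1 within each cell type for age and genotype. The filter kept 8 members in the joint fit, 7 in MPP3 (not Ighg1) and 5 in LT-HSC (not Ighg1, Ighg2c and Ighg3). Ighg2c in MPP3 and Jchain and Ighg2b in LT-HSC were kept only through mutant libraries. Age and cell type contrasts average the groups with equal weight. CPM use TMM factors over all 28 libraries. The fits were run on simulated counts in which a changed gene moved alike in all libraries of a side. That setting does not cover genes high in single libraries, as antibody genes were in LT-HSC. SE is the log2 change over the square root of F. Alternatives used DESeq2 1.42.0, limma 3.58.1, other scalings and filters, the inferred pools, and left-out libraries. Totals of 5591775 to 10788237 counts limit precision, and exact 95% intervals came from SciPy 1.17.1. Nothing states that libraries of a group came from separate donors, so p-values measure the spread between these libraries. Recipients named in the titles pair LT-HSC with MPP3; the deviations of the 14 pairs from group means had a mean correlation of 0.012 (range -0.032 to 0.089).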

Additional observations from a re-analysis of the deposited data

Results flagged for a closer look

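Of 39 sets of 4 libraries tested, 17 had 1 library far from the other 3 by Dixon's test. Chance gives this in about 1 set in 20 if values are normally distributed. CPM and shares were tested untransformed and are skewed, so no excess over chance is read from that rate. That rate does not apply to the 6 of these sets in which the other 3 libraries were at 0, and genes of the same library are not independent. In aged control MPP3 these were Igkc at 2603 CPM in replicate 1 and Ighg3 at 0.50 CPM in replicate 4. In aged mutant LT-HSC they were Ighg2b at 194 CPM in replicate 4, and Ighg2c at 11.4 CPM and Ighg3 at 4.63 CPM in replicate 3. In aged mutant MPP3, replicate 1 had 7801 CPM of Ighm and the low Igha share of 49.8%, replicate 4 had 27796 CPM of Igha and 77.5 CPM of Ighg3, and replicate 3 had 18.4 CPM of Ighg1. In young control LT-HSC, replicate 4 had 6.59 CPM of Ighm and 5.06 CPM of Igkc, and 0.00135% of its counts in the 8 genes. In young control MPP3, replicate 3 had 12265 CPM of Igha and 87.0 CPM of Ighg2b, replicate 2 had 14.4 CPM of Ighg1, and replicate 4 had 3.42 CPM of Ighg3.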

How the results depend on the processing

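Few antibody counts in most LT-HSC libraries, 2 to 4 libraries a group and uneven pools limit these results. The number of listed genes that passed between cell types, 4, was 2 with limma voom, 2 within pool 1, and 3 to 5 over all left-out libraries, while the count over all genes was 203 within pool 1, 524 within pool 2 and 735 without libraries above 1%, a setting chosen after seeing the data. DESeq2 passed 3 listed genes for age by cell type, 1 for genotype in aged LT-HSC and 2 for genotype in aged MPP3, where edgeR passed 0. Of these, Jchain in aged LT-HSC and Ighg2c in aged MPP3 entered the test only through mutant libraries. Age in MPP3 within pool 1 rested on young mutant replicate 1 as the only young library. As a share of all 8 genes, Igha was 49.9% in MPP3.

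For age in MPP3, Igha was 0.58 and Igkc 0.98 without libraries above 1%, against -0.69 and -0.16. That cut left no aged mutant library, so it set aged controls against young libraries of both genotypes, which is a different contrast. Signs also turned for genotype. In aged LT-HSC, Igkc was -0.68 within pool 2 and Ighm -1.09 without libraries above 1%. In young MPP3, Igkc was -0.051 with the pool as covariate; within pool 2 Igha was -0.51, Igkc -0.33 and Jchain -0.74; without libraries above 1% they were -1.89, -1.89 and -1.65. Left-out libraries gave, in young LT-HSC, -6.92 to 6.92 for Ighm and -2.003 to 5.20 for Igkc, and, in young MPP3, -0.052 to 0.75 for Ighm, -0.53 to 2.63 for Igha, -0.34 to 2.08 for Igkc and -0.76 to 1.90 for Jchain. The cause was not tested.

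With shared recipients as a replicate block, 4 listed genes passed between cell types. Between groups of 1 cell type replicate numbers mark no shared animal; same-numbered libraries had a mean correlation of 0.0068, and a block by number passed 0 listed genes in the age and genotype comparisons. Age by cell type was not run within either pool or without libraries above 1%, nor was genotype in aged MPP3 or its interaction with age without the latter, genotype in young LT-HSC or its interaction within pool 2, or the young MPP3 genotype and interaction within pool 1.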

Other observations

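Receptors that bind antibodies and genes of plasma cell homing differed between cell types apart from the 8 genes. Of all genes tested, 12.2% passed between cell types and 6.35% passed as higher in MPP3. Of 10 antibody receptor and transport genes tested, 5 rose and 0 fell in MPP3, among them the IgG receptors Fcgr2b (log2 difference 6.68) and Fcgr3 (8.90), the latter also a marker of myeloid progenitors. Of 11 homing and survival genes 4 rose and 1 fell. Cxcr4, the receptor that holds plasma cells and stem cells in the marrow, rose by 1.86 (SE 0.35, edgeR adjusted p = 0.00054), and the mucosal homing receptors Ccr9 and Ccr10 rose by 4.51 and 5.70. Mcl1, a survival factor, fell by 0.61 on the log2 scale.

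Among light chains, young mutant MPP3 replicate 1 held 20865 counts of the 1 lambda constant gene matched in the count table. That library also held counts in 38 heavy variable genes above 3 counts, and its leading heavy variable gene gave 17.6% of heavy variable counts.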
